A study of Mus musculus with 12 samples.

Results

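Rtn4, Tcea1, Glo1, Gpatch4, Arpc4, Golga7, Jagn1, Tmsb10, Zfp518b and S100a6 were chosen by their FPKM values as large shifts between mouse embryonic stem (ES) cells with Dcaf11 knocked down and control ES cells. They are 10 of the 22619 gene symbols listed. The values that chose them were the FPKM values of 4 ES cell libraries, so their difference between those libraries is given as a description, without a test. FPKM scales the reads of a gene by its length and by the reads of the library. Their values in the 8 embryo libraries of the same series did not enter the choice.

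Dcaf11 encodes a substrate receptor of a cullin-RING ubiquitin ligase, an enzyme complex that tags proteins for degradation. Libraries were made by Smart-seq2, in which polyadenylated RNA is captured, reverse transcribed and preamplified. The ES cells were of strain 129Sv, as wild type (control ESC, n = 2) or Dcaf11 knock down (KD ESC, n = 2). The embryos were C57BL/6, as wild type (control embryo, n = 2) or Dcaf11 knock out under the titles KOEmbryo (KO embryo, n = 3) and KOArrest (KO arrest, n = 3). Arrest is known from the titles alone. The knockdown method, the deleted part of the gene, the embryonic stage and the number of cells per library are not stated. Strain and sample type both differ between the ES cell and the embryo libraries, so neither can be told apart from the other. Whether libraries of a group came from separate embryos or cultures is not stated either, so p-values cover library-to-library spread that may be technical. In RNA from many cells, fewer cells of a type and less RNA per cell cannot be told apart.

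The genes fall into several cellular roles. Rtn4 encodes a reticulon, a membrane protein that bends the endoplasmic reticulum (ER) into tubules, and Jagn1 encodes an ER membrane protein of the early secretory pathway. Golga7 encodes a Golgi protein that acts with a palmitoyltransferase, an enzyme that attaches the lipid palmitate to proteins such as Ras. Arpc4 is a subunit of the Arp2/3 complex, which starts branched actin filaments, and Tmsb10 is a beta thymosin, a small protein that binds actin monomers. Tcea1 (TFIIS) helps a stalled RNA polymerase II to resume by cutting the nascent RNA, and Gpatch4 carries a G-patch, a motif through which proteins bind RNA helicases. Glo1 encodes glyoxalase, which clears the toxic sugar by-product methylglyoxal with glutathione. Zfp518b encodes a zinc finger protein whose human counterpart binds a histone H3 lysine methyltransferase. S100a6 (calcyclin) is a calcium-binding protein.

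Promoter windows were available for 7 of the 10 genes in the RefSeq table of build GRCm38.p6 (Rtn4, Glo1, Arpc4, Jagn1, Tmsb10, Zfp518b and S100a6), and Tcea1, Gpatch4 and Golga7 are named only. The 250 bases before the start are shown for the gene with the largest rise (Rtn4), for the gene with the largest fall (Tmsb10), for the gene listed at 0 after the knockdown (S100a6) and for Glo1, whose window holds overlapping GC boxes. Capitals mark matches, on either strand, to 5 searched motifs. These were the TATA box (letters TATAAA), the CCAAT box (letters CCAAT), the GC box (letters GGGCGG), the E box (letters CACGTG) and the core of a CRE, the element bound by CREB (letters TGACG). The windows lie at chr11:29692648-29692897 (plus strand, Rtn4), chr17:30612660-30612909 (minus, Glo1), chr6:72958749-72958998 (minus, Tmsb10) and chr3:90612644-90612893 (plus, S100a6), and each is written 5′ to 3′ on its gene's strand.
Rtn4: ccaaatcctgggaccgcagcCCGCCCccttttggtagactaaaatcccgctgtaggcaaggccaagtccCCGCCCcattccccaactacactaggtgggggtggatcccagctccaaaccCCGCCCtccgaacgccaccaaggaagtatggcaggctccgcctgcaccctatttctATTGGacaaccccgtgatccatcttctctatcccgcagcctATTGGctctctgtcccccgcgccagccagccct
Glo1: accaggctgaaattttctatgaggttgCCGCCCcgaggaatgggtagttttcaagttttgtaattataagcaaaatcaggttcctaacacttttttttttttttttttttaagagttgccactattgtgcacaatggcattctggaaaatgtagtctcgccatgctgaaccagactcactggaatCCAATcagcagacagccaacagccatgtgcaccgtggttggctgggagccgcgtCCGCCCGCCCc
Tmsb10: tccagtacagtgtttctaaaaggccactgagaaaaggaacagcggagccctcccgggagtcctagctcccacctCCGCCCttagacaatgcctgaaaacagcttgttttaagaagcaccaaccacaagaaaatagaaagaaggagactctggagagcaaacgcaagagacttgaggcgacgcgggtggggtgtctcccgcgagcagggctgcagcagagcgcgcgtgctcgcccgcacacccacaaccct
S100a6: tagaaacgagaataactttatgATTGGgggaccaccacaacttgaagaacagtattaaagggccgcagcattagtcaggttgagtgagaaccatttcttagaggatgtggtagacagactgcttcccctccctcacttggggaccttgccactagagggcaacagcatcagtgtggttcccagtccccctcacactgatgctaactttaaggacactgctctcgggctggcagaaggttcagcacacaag
Rtn4 showed 3 GC boxes and 2 CCAAT boxes on the reverse strand, Glo1 showed 3 GC boxes, of which the last 2 overlap, and 1 CCAAT box, Tmsb10 showed 1 GC box and S100a6 showed 1 CCAAT box. The S100a6 window had 50.0% G and C and 3 CpG sites, with a CpG observed-to-expected ratio of 0.192. The corresponding ratio was 0.571 in the Rtn4 window shown and 0.696 in the Tmsb10 window shown, and its median over the 32851 promoters of the table was 0.374. Both windows lie at the most upstream listed start of their gene. The ratio was 0.845 and 0.105 in the other Rtn4 windows and 0.722 and 0.985 in the other Tmsb10 windows. Several genes have more than 1 listed start, which gave 12 windows. A GC box was found in 6 of the 12 and in 32.7% of all promoters, a CCAAT box in 3 of the 12 and in 33.8%, and an E box in 1 of the 12 and in 6.02%. The 6 windows with a GC box belong to Tmsb10, Rtn4 and Glo1 alone, and windows of the same gene are not independent. The TATA box, found in 12.4% of all promoters, and the CRE core, found in 17.8%, had no match in these windows. These matches describe letters and not binding.

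Relative depth, taken as the deposited coverage value per FPKM, ranged from 0.373 to 2.01 across libraries, and 6573 to 12061 genes reached 1 FPKM. The first control embryo library had the fewest such genes. Dcaf11 itself stood at 6.48 and 4.52 FPKM in control ESC and at 1.69 and 1.83 in KD ESC, a log2 fold change of -1.22 ± 0.21 (SE) with a limma adjusted p of 0.0521. In embryos it stood at 2.82 and 14.3 FPKM in control, at 3.99, 2.84 and 0.184 in KO embryo and at 4.43, 0.422 and 6.02 in KO arrest. The embryo groups overlapped for Dcaf11, and a gene-level value can include exons outside a deletion, so it is no check of the labels. Fixed marker lists moved between groups as well. The summed level of 14 fibroblast markers was 141 to 149 FPKM in control ESC, 78.3 to 81.5 in KD ESC, 17.6 to 69.6 in control embryo, 61.9 to 96.4 in KO embryo and 4.62 to 6.82 in KO arrest. The sum of 10 pluripotency markers was 3479 to 3523 FPKM in control ESC and 2775 to 3096 in KD ESC. Among them Esrrb was uneven, at 28.6 and 244.4 FPKM in KD ESC against 255.1 and 253.3 in control ESC. Dppa5a was lower in both KD ESC libraries, at 356.4 and 445.7 FPKM against 698.3 and 694.3. The sum of 12 oocyte and early embryo markers was 38296 to 53072 FPKM in control embryo, 12243 to 18173 in KO embryo and 915 to 1543 in KO arrest, against 1.43 to 2.20 over the ES cell libraries. Most of the embryo sums came from Omt2a (15257 and 18938 FPKM in control embryo) and Omt2b (20739 and 27071). Of 11 markers tested by limma against control embryo, 3 fell in KO embryo and 6 in KO arrest, and none rose. Over all genes 6.36% and 25.2% were called in either direction. Blood markers summed to 80.2 to 198 FPKM in control embryo, 239 to 370 in KO embryo and 0 to 9.31 in KO arrest, and to at most 0.0680 in ES cells.

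In ES cells 7 of the 10 genes were higher after Dcaf11 knockdown and 3 were lower. Rtn4 stood at 2.83 and 1.99 FPKM in control ESC and at 170.8 and 135.4 in KD ESC, a log2 fold change of 5.50 ± 0.19 (SE) on the log2(FPKM + 1) scale used for all folds here. Both KD ESC libraries lay above all other libraries for Rtn4, and both control ESC libraries lay below them. Among the ER and Golgi genes, Golga7 stood at 2.86 and 0.472 FPKM in control ESC and at 32.6 and 21.9 in KD ESC (log2 fold change 3.54 ± 0.52). The control ESC libraries for Golga7 differed more than for most genes: their range of 1.39 on the log2 scale was at the 97.6 percentile of 12522 genes. Jagn1 stood at 1.78 and 1.84 FPKM in control ESC and at 29.6 and 31.6 in KD ESC, a log2 fold change of 3.49 ± 0.12.

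For the actin genes the shifts ran in opposite directions. Arpc4 stood at 2.14 and 2.18 FPKM in control ESC and at 36.6 and 38.1 in KD ESC, a log2 fold change of 3.60 ± 0.12. Tmsb10 stood at 638.3 and 644.2 FPKM in control ESC and at 25.5 and 25.8 in KD ESC, a log2 fold change of -4.59 ± 0.07. Tmsb10 was thus, by FPKM, the highest of the 10 genes in control ESC and below Rtn4, Tcea1, Glo1, Gpatch4, Arpc4 and Jagn1 in both KD ESC libraries. S100a6, which was also lower, stood at 15.1 and 20.4 FPKM in control ESC and was listed at 0 in both KD ESC libraries. No fold is given against a group listed at 0, and its log2(FPKM + 1) difference was -4.21 ± 0.21. The fibroblast marker sum was lower in the same libraries as Tmsb10 and S100a6 (141 to 149 against 78.3 to 81.5 FPKM), with 4 of 11 tested markers falling, among them Tagln at -1.35 ± 0.14 (limma adjusted p = 0.0312). Of 10 pluripotency markers 4 fell and none rose, among them Klf4 at -0.84 ± 0.08 (limma adjusted p = 0.0285), and 6 did not pass. Of those that did not pass, Sox2 stood at 432.4 and 436.6 FPKM in control ESC and at 458.9 and 477.8 in KD ESC. Over all 12264 genes tested in ES cells, 3.64% were called lower. The part of either list in the result was not tested.

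Tcea1, Gpatch4 and Glo1 were higher in KD ESC and Zfp518b was lower. Tcea1 stood at 2.81 and 2.36 FPKM in control ESC and at 65.7 and 71.5 in KD ESC, a log2 fold change of 4.28 ± 0.13. Gpatch4 stood at 1.37 and 1.45 FPKM in control ESC and at 40.6 and 32.0 in KD ESC (log2 fold change 3.94 ± 0.17). Glo1 stood at 2.18 and 2.05 FPKM in control ESC and at 51.0 and 47.9 in KD ESC, a log2 fold change of 4.02 ± 0.12. Zfp518b, the zinc finger gene, stood at 35.9 and 37.2 FPKM in control ESC and at 0.765 and 0.756 in KD ESC, a log2 fold change of -4.41 ± 0.13.

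By size of the ES cell difference the 10 genes ranked between 2nd and 21st of 12264 genes, and 11 genes outside the set shifted at least as much as the least shifted of them. The gene closest inside the bound was Jagn1 at 3.49, and the closest outside it in size was at 3.38. In the fit of the 4 ES cell libraries 6.23% of genes were called at an adjusted p under 0.05 (2.59% higher, 3.64% lower), and the groups did not overlap for 62.5%. All 10 genes met both, which the choice of genes fixes. Several genes outside the set shifted as much but were uneven between libraries. Hnrnpa1, an RNA-binding protein gene, was listed at 0 and at 216.8 FPKM after the knockdown, and Ubald2 at 0.165 and 33.3 in the control ESC libraries.

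**Figure D1:**
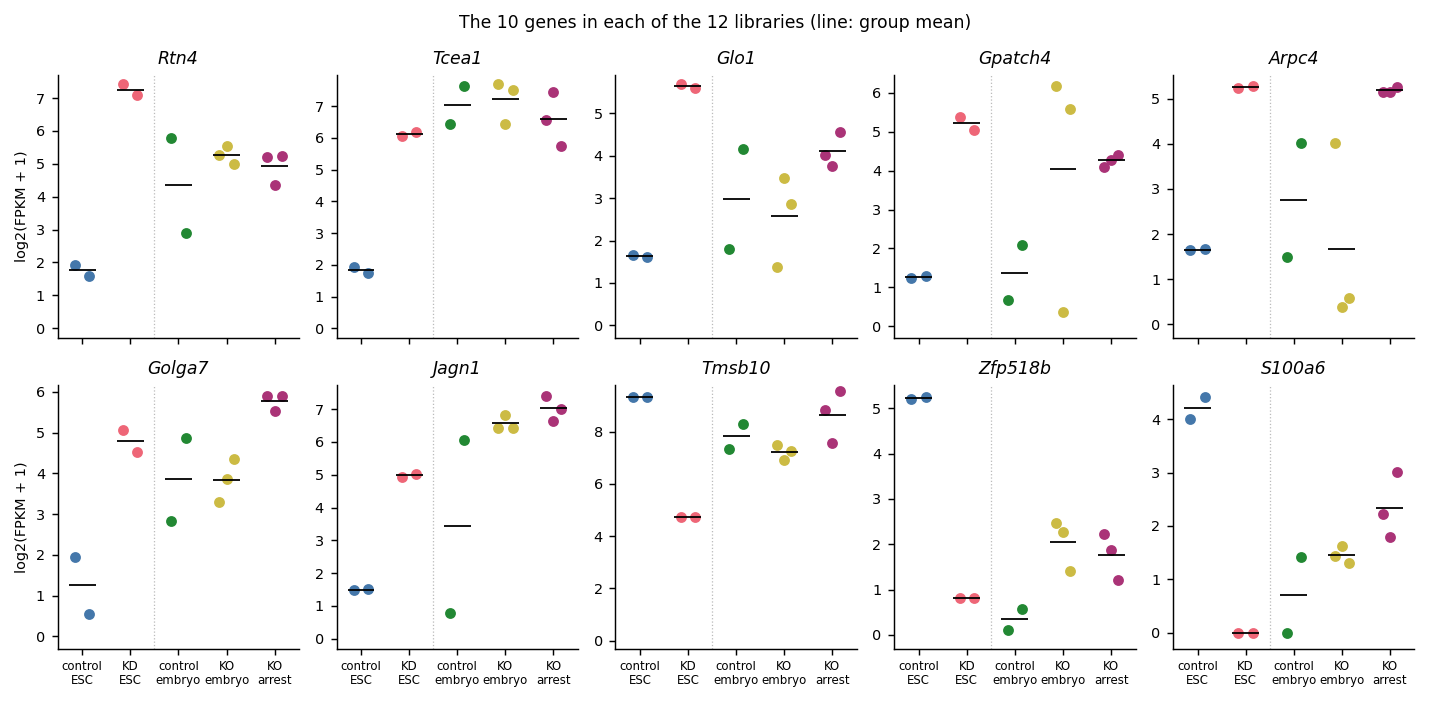
Level of each of the 10 genes in the 12 libraries, as log2(FPKM + 1), with 1 panel per gene, points for libraries and a line for the group mean. The first 7 genes are higher in KD ESC than in control ESC and Tmsb10, Zfp518b and S100a6 are lower.

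For Rtn4 the deposited coverage did not move in step with FPKM between the ES cell groups. For Tcea1 and Tmsb10 it moved with FPKM but stood lower relative to it than in most genes. Coverage per FPKM, relative to the library's own value, was 0.106 and 0.109 for Rtn4 in the control ESC libraries and 0.179 to 0.187 in the other libraries. For Tcea1 it was 0.217 to 0.226 throughout, for Tmsb10 0.664 to 0.676, and for Glo1 0.464 in the first control embryo library and 1 in the rest. On the coverage scale, an alternative chosen after seeing the data, the ES cell difference was 4.54 for Rtn4 and 3.37 for Tcea1, and it was 3.47 for Jagn1 and -4.56 for Tmsb10. The pseudocount of 1 was kept for the lower coverage values of Rtn4 and Tcea1 and shrinks their folds. Their folds are thus no measure of a smaller shift in coverage than in FPKM. What coverage per FPKM reflects is not stated.

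The ES cell values were then set against the embryo libraries. For Rtn4, Tcea1 and Golga7 all 8 embryo libraries lay above both control ESC libraries, and for Zfp518b and S100a6 all 8 lay below both. For Rtn4 and Glo1 both KD ESC libraries lay above all 8 embryo libraries, and for Tmsb10 both lay below all 8. Control ESC thus lay outside the other 10 libraries for 5 of the 10 genes and KD ESC for 3. Among the 764 genes with an adjusted p under 0.05 in ES cells these shares were 42.4% and 31.9%, and among all 14447 genes tested over the 12 libraries they were 19.4% and 12.8%. The choice of the 10 genes by a large ES cell difference favours a place outside the other libraries. For Jagn1 the embryo median was 92.3 FPKM, above both ES cell groups, while for Arpc4 the highest embryo library, at 37.6 FPKM, lay between the 2 KD ESC values.

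**Figure D2:**
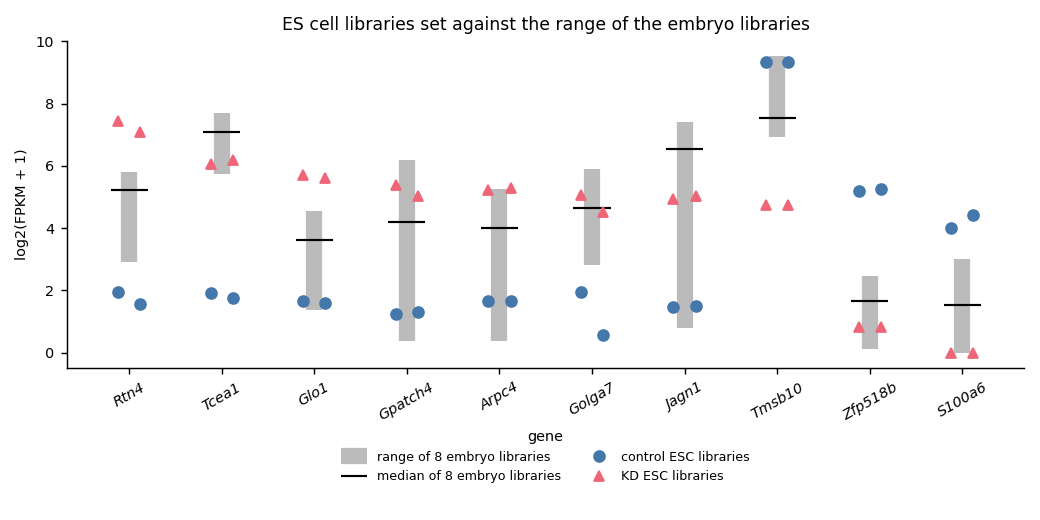
Control ESC (circles) and KD ESC (triangles) libraries against the range (grey bar) and median (black line) of the 8 embryo libraries for each gene, as log2(FPKM + 1). Control ESC lies outside the embryo range for Rtn4, Tcea1, Golga7, Zfp518b and S100a6, and KD ESC for Rtn4, Glo1 and Tmsb10.

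None of the 10 genes passed the test between KO embryo and control embryo (limma, Benjamini-Hochberg adjusted p under 0.05, with 6.36% of 11795 genes called, 4.86% higher), and 2 had an unadjusted p under 0.05. These were Jagn1 and Zfp518b. Jagn1, an ER gene, stood at 0.725 and 66.3 FPKM in control embryo and at 85.5, 112.9 and 85.6 in KO embryo (log2 fold change 3.14 ± 1.12, adjusted p = 0.123 by limma). Zfp518b stood at 0.0821 and 0.488 FPKM in control embryo and at 4.50, 3.85 and 1.65 in KO embryo (1.71 ± 0.63, adjusted p = 0.135 by limma). Zfp518b was under 1 FPKM in both control embryo libraries, so it passed the filter on low values through the knock out libraries alone. These were also the 2 genes whose groups did not overlap, an arrangement seen in 36.3% of all genes tested, 24.2% with KO embryo higher. Gpatch4 was uneven within KO embryo, at 71.3, 0.30 and 47.2 FPKM, against 0.60 and 3.22 in control. Arpc4 was likewise uneven, at 15.1, 0.310 and 0.512 FPKM in KO embryo against 1.80 and 15.1 in control. The KO embryo range of Gpatch4 was at the 99.8 percentile of 11229 genes and that of Arpc4 at the 98.3 percentile.

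Between KO arrest and control embryo, 2 of the 10 genes rose and none fell, with 25.2% of 11795 genes called, 16.4% higher. Golga7 stood at 6.11 and 28.3 FPKM in control embryo and at 58.6, 45.3 and 58.2 in KO arrest (log2 fold change 1.92 ± 0.62, adjusted p = 0.0438 by limma). Jagn1 reached 168.4, 98.9 and 128.8 FPKM in KO arrest (3.59 ± 1.12, adjusted p = 0.0387 by limma). The 2 control embryo libraries differed by 5.29 on the log2 scale for Jagn1, the 99.6 percentile of 10836 genes, and without the first of them the log2 fold change was 0.95 for Jagn1 and 0.90 for Golga7 and neither passed. When single libraries were left out, both genes passed without the second control embryo library (log2 fold change 6.24 for Jagn1 and 2.94 for Golga7) and neither passed without any other of the 8 libraries. Over all 21 alternatives Jagn1 passed in 7 and Golga7 in 6. Deposited TPM, median-of-ratios scaling and quantile normalization each left no called gene among the 10.

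The other 8 genes did not pass in this comparison. Arpc4 stood at 34.7, 34.6 and 37.6 FPKM in KO arrest, above both control libraries (2.45 ± 1.07, adjusted p = 0.120 by limma), with a KO arrest range at the 0.801 percentile of 11480 genes. Gpatch4 stood at 16.05, 18.4 and 20.3 FPKM in KO arrest (2.88 ± 1.38, adjusted p = 0.152 by limma). S100a6 stood at 0 and 1.65 FPKM in control embryo and at 3.68, 2.48 and 7.01 in KO arrest, and Zfp518b at 3.65, 2.68 and 1.32 in KO arrest. For 6 of the 10 genes (Gpatch4, Arpc4, Golga7, Jagn1, Zfp518b and S100a6) the KO arrest libraries lay above both control libraries without overlap. Groups without overlap made up 48.8% of all genes tested, and 31.3% were higher in KO arrest. The median log2 fold change of the 10 genes was 1.53, beside 0.45 over all genes. Rtn4, Tcea1, Glo1 and Tmsb10 overlapped between the groups. The oocyte marker sum, most of it Omt2a and Omt2b, was lower in the same KO arrest libraries (915 to 1543 FPKM against 38296 to 53072). Its part in these results was not tested.

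KO arrest and KO embryo, both labelled Dcaf11 knock out, differed for 1 of the 10 genes, with 8.58% of 11795 genes called, 4.93% higher. Arpc4 rose, by 3.53 ± 0.96 on the log2 scale (adjusted p = 0.0464 by limma), and 2 of its 3 KO embryo libraries were under 1 FPKM. The call held in 11 of 21 alternatives and was lost without the second or the third KO embryo library (2.89 and 2.99) and without any 1 of the 3 KO arrest libraries. Golga7 stood at 8.86, 13.5 and 19.4 FPKM in KO embryo, below every KO arrest library, and had a log2 fold change of 1.94 ± 0.55 (adjusted p = 0.0557 by limma). Tmsb10 stood at 177.7, 119.4 and 152.1 FPKM in KO embryo and at 449.7, 188.6 and 743.0 in KO arrest (1.42 ± 0.49, adjusted p = 0.0989 by limma). KO arrest did not overlap KO embryo for 5 of the 10 genes, all higher, against 37.1% of all genes tested, 19.4% with KO arrest higher. The comparisons with control embryo share the same 2 libraries, and KO embryo and KO arrest each enter 2 comparisons, so their folds are not independent.

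**Figure D3:**
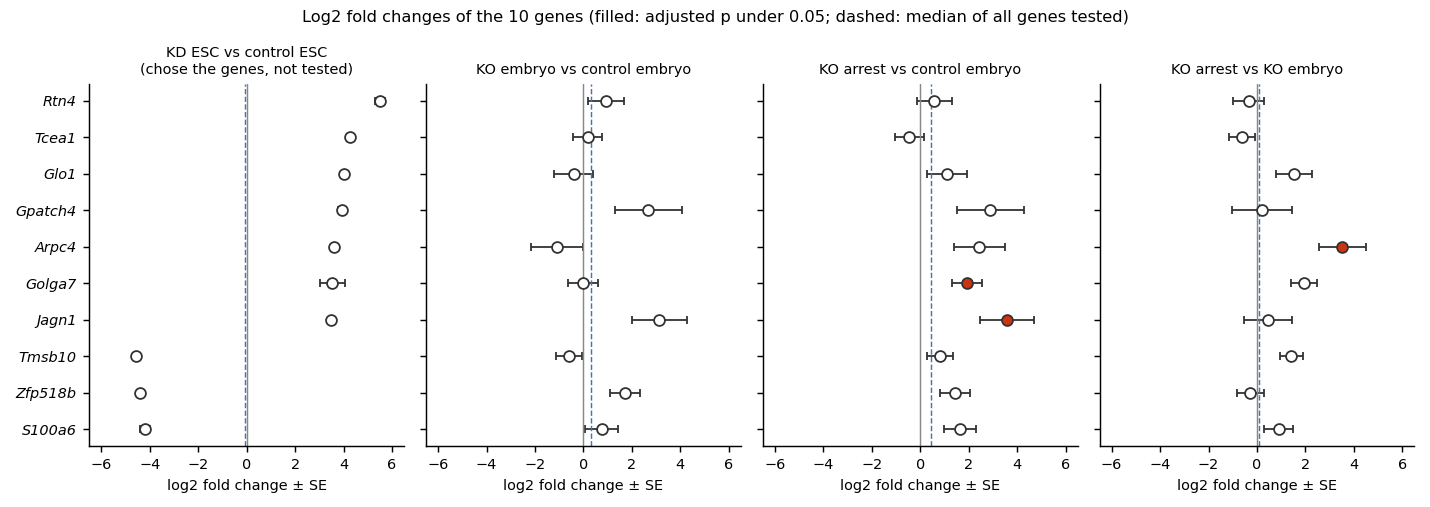
Log2 fold change and SE of the 10 genes in 4 comparisons, filled where the adjusted p by limma was under 0.05, with the median of all genes tested as a dashed line. The first panel shows the comparison that chose the genes and is not a test. Filled points are Golga7 and Jagn1 in KO arrest against control embryo and Arpc4 in KO arrest against KO embryo.

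The levels of Rtn4 in embryos were 54.4 and 6.5 FPKM in control, 37.7, 45.8 and 31.0 in KO embryo and 35.8, 19.6 and 36.5 in KO arrest. The second control library was the lowest, and the groups overlapped. Tcea1 stood at 86.2 and 196.8 FPKM in control embryo, at 206.7, 85.2 and 181.6 in KO embryo and at 94.3, 173.0 and 52.3 in KO arrest, and the groups overlapped. Glo1 stood at 2.49 and 17.0 FPKM in control embryo, at 1.59, 10.2 and 6.33 in KO embryo and at 15.1, 12.4 and 22.7 in KO arrest, where all 3 KO arrest libraries lay above all 3 KO embryo libraries (1.53 ± 0.74, adjusted p = 0.216 by limma). Tmsb10 stood at 160.6 and 313.5 FPKM in control embryo and S100a6 at 1.71, 2.07 and 1.47 in KO embryo. Across the 8 embryo libraries the highest value was 237.5 times the lowest for Gpatch4, 232 times for Jagn1 and 121 times for Arpc4, and 3.95 times for Tcea1.

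By the authors' coordinates (build mm9) Arpc4 (chr6:113328107-113340441) and Jagn1 (chr6:113392511-113398223) lie on the same stretch of chromosome 6, both on the plus strand. Rtn4 lies at chr11:29592898-29644414, Tcea1 at chr1:4847775-4887990, Glo1 at chr17:30729807-30749604, Gpatch4 at chr3:87847030-87859914, Golga7 at chr8:24351798-24367552, Tmsb10 at chr6:72907341-72908742, Zfp518b at chr5:39059723-39076065 and S100a6 at chr3:90416816-90418336. The genes before and after each, and any overlapping it, came to 22, of which 12 were tested. None of the 12 passed between KD ESC and control ESC (limma, 2 at an unadjusted p under 0.05), and their log2 fold changes were -0.30 to 0.68. Eml6, a microtubule-associated protein gene that overlaps Rtn4 on the opposite strand, stood at 1.31 and 1.17 FPKM in control ESC and at 2.50 and 1.15 in KD ESC. Ttll3, which overlaps Arpc4 on the same strand and shares 283 bases of transcript at 100% identity, stood at 3.68 and 4.55 FPKM in control ESC and at 4.14 and 3.74 in KD ESC. Of the 12 neighbours 3 passed in KO arrest against control embryo, beside 25.2% of all genes. Apoa1bp beside Gpatch4 rose by 2.94 (limma adjusted p = 0.0108) and Kcmf1 beside Tmsb10 fell by 1.38 (limma adjusted p = 0.0202). Gins4, a replication fork gene 3658 bases from Golga7, rose by 2.11 (limma adjusted p = 0.00596).

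**Figure D4:**
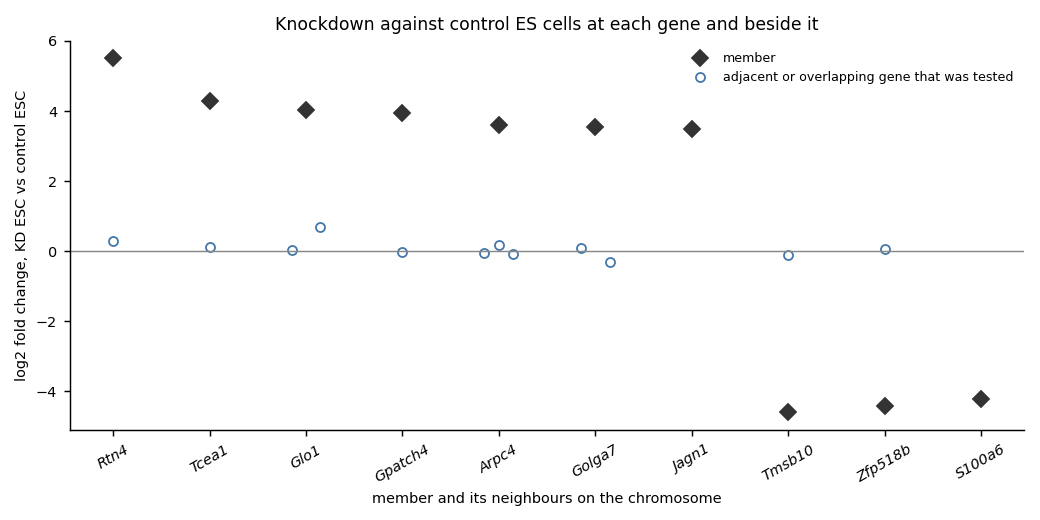
Log2 fold change between KD ESC and control ESC of each gene (diamonds) and of the adjacent or overlapping genes that were tested (circles). The circles lie between -0.30 and 0.68.

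Near-identical transcripts, compared on the GENCODE transcripts of build GRCm38 at 95% identity or more over 200 bases or more, were found for 5 of the genes. Tcea1 shared 842 of 2854 bases with Tcea1-ps1, Tmsb10 shared 413 of 690 bases with Gm9844 and Glo1 shared 555 of 9865 bases with Gm13443. Golga7 shared 234 of 4771 bases with Gm6829. The copies of Tcea1, Tmsb10, Glo1 and Golga7 are not among the symbols listed. How their reads were assigned is not shown, so the levels of these genes carry that uncertainty. Arpc4 shared 283 of 2270 bases with its overlapping neighbour Ttll3, which is listed.

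The gene whose profile over the 12 libraries was closest to each member was found by the root mean square difference of centred log2(FPKM + 1) values among 14447 genes. Tmsb10 and S100a6 were near each other (0.83), and S100a6 was nearest to Zfp518b (0.82), which the shared choice by the ES cell difference favours. Golga7 was nearest to 1810058I24Rik (0.86), Jagn1 to Lyrm1 (0.93), Rtn4 to Nars (0.98), a cytoplasmic asparaginyl-tRNA synthetase gene, Arpc4 to Trim54 (1.02), Glo1 to 2310022A10Rik (0.90), Tcea1 to Tm2d3 (1.12), Gpatch4 to 1810022K09Rik (1.33) and Zfp518b to the microRNA gene Mir134 (0.77).

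Genes of the same pathways, 178 in 11 lists without the 10 genes, were read beside them. Between KD ESC and control ESC 6 rose and 5 fell of 156 tested, 7.05%, beside 6.23% of all genes. Of the 9 tested Arp2/3 partners of Arpc4 none passed (limma, 2 at an unadjusted p under 0.05). Among Arp2/3 activators and inhibitors 2 of 18 rose, Rac1 at 0.64 ± 0.07 (limma adjusted p = 0.0314) and Wasl at 0.60 ± 0.09 (limma adjusted p = 0.0405). In the list of beta thymosins and actin monomer binding, 3 of 12 fell: Tmsb4x at -0.52 ± 0.08 (limma adjusted p = 0.0424), Actb at -0.43 ± 0.06 and Cfl1 at -0.42 ± 0.06. Tmsb4x, the other widely used beta thymosin, went from 73.2 and 75.5 FPKM to 52.6 and 50.8. Among reticulons and ER tubule-shaping genes 1 of 16 rose, Reep1 at 1.33 ± 0.13 (limma adjusted p = 0.0300). Of the COPI coat, which retrieves proteins from the Golgi to the ER, Copz2 rose by 2.07 ± 0.18 (limma adjusted p = 0.0275) and Copz1 fell by 0.78 on the log2 scale (limma adjusted p = 0.0470) of 10 tested. Among RNA polymerase II elongation genes 1 of 23 rose, Aff4 at 0.69 ± 0.08. Among methylglyoxal clearance genes 1 of 11 fell, Akr1a1 at -0.94 ± 0.15. Zfp518a, the paralogue of Zfp518b, rose by 0.75 ± 0.08 (limma adjusted p = 0.0306), from 53.3 and 52.4 to 87.7 and 91.6 FPKM, as 1 of 11 tested. No gene passed by limma among 19 G-patch genes, 17 palmitoyltransferase partners and 10 S100 family genes and S100A6 partners, where 3, 6 and 5 had an unadjusted p under 0.05.

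In embryos 6 of 152 such genes rose and none fell between KO embryo and control embryo, 3.95% beside 6.36%, and among them Supt6, Tceb2 and Supt4a belong to the RNA polymerase II elongation list. In KO arrest against control embryo 26 rose and 11 fell, 24.3% beside 25.2%. In that comparison the Arp2/3 subunit Arpc3 rose by 3.53 ± 0.80 (limma adjusted p = 0.0100), the subunit Arpc5 rose by 1.42 ± 0.47 and the subunit Actr2 fell by 1.66. The actin monomer binder Pfn1 rose by 5.51 ± 1.00 (limma adjusted p = 0.00352), and the COPI subunit Cope rose by 5.15 ± 0.80. Of the S100 genes S100a3 rose by 5.59 ± 1.04 and S100a9, a neutrophil protein gene, fell by 6.03 and was listed at 0 in all 3 KO arrest libraries. S100a9 is itself on the blood marker list. Of the other blood markers Lyz2 stood at 6.75 and 21.5 FPKM and Ngp at 5.10 and 13.2 FPKM in control embryo, and each was at 0 in every KO arrest library. Their part in the result was not tested. In KO arrest against KO embryo 11 rose and 8 fell, 12.5% beside 8.58%, with Arpc3 up by 2.72 ± 0.72 and Actr2 down by 2.04 on the log2 scale.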

How the data were processed

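The 12 Smart-seq2 libraries of mouse embryos and ES cells were analysed from 1 deposited table each, listing FPKM, TPM and coverage per gene. STAR (version given as 0.6.0), StringTie, DESeq2 and build mm9 are named per the submitters' processing notes, without their roles or settings. The deposited FPKM values were summed per gene symbol. The deposited TPM values and the deposited coverage signal served as alternatives. Unnamed rows (227 to 339 a library, 0.549% to 1.19% of its FPKM) were dropped. The files hold no read counts, so no counting interval is given.

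Embryo groups were compared in 1 fit of 8 libraries and ES cell groups in a fit of 4, by limma 3.58.1 in R 4.3.3 with a variance trend, on log2(FPKM + 1), a pseudocount that understates the change of low genes. Genes needed at least 1 FPKM in at least 2 libraries of the fit and were called at a Benjamini-Hochberg adjusted p-value under 0.05. Fits were tested on simulated data. All 10 genes passed the filter in both fits, which a gene can do through the group where it is high. Named genes are the 10, Dcaf11, their neighbours, the nearest profiles and, per list, up to 3 called genes with the largest fold. The members and lists were chosen with earlier results of these data known. Genes named only for uneven ES cell shifts (Hnrnpa1, Ubald2, Esrrb) were chosen after their values were seen. Alternatives were other pseudocounts, filters, scalings, library weights, fits, a replicate block, a length trend and leaving out each library. Tables and plots used Python 3.11.15, pandas 2.3.3 and matplotlib 3.10.9.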

Additional observations from a re-analysis of the deposited data

Results flagged for a closer look

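For 3 results, every library of an embryo group lay on 1 side of control while the ES cell libraries moved to the other side. The ES cell direction is what chose the genes, and the difference was not tested. Over all genes tested, 24.2% were higher without overlap in KO embryo and 31.3% in KO arrest than in control embryo, so such an arrangement was common. Zfp518b was higher in KO embryo than in control embryo (log2 fold change 1.71) and higher in KO arrest (1.43), and lower in KD ESC than in control ESC (-4.41). In the embryo fit Zfp518b passed the filter on low values only through the knock out groups, and it was not tested at a minimum of 5 FPKM. S100a6 was higher in KO arrest than in control embryo (1.64) and lower in KD ESC (-4.21). At 0 and 1.65 FPKM in control embryo, S100a6 also needed the knock out groups to pass the filter. It was not tested at a minimum of 5 FPKM either. None of these embryo differences passed the test across all genes.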

How the results depend on the processing

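Small groups and uneven control embryos limit the embryo results, and depth is known only as a ratio between libraries. In 156 recomputed log2 fold changes of the 10 genes between KD ESC and control ESC the direction stayed as reported, while 35 moved by more than the spread between replicates. The widest was S100a6 (-4.21), at -7.46 with a pseudocount of 0.1, -5.60 with TPM and -4.02 with quantile normalization, and Zfp518b (-4.41) reached -5.41 with a pseudocount of 0.1. Genes called numbered 750 in KO embryo against control embryo, and 269 without a filter, 82 with library weights, 228 from only the 2 groups, 1709 from all 12 libraries and 87 to 1817 leaving out 1 library. The 2976 of KO arrest against control embryo became 1505 with weights and 1983 to 3636 leaving out 1 library. The 1012 of KO arrest against KO embryo became 456 without a filter, 2555 with weights, 2030 from 2 groups, 2081 from 12 libraries and 285 to 2023 leaving out 1 library. The 764 of ES cells became 313 without a filter, 431 with TPM, 93 from 12 libraries and 13 to 686 leaving out 1 library. Members called in KO embryo were 0, and 1 (Zfp518b) from 12 libraries, and 0 to 1 leaving out 1 library (Rtn4 without control 1, Jagn1 without control 2, Gpatch4 without KO embryo 2). In KO arrest against control embryo the 2 became 0 with a pseudocount of 0.1, no filter, TPM, median-of-ratios scaling or quantile normalization, 1 with weights (Jagn1) or 2 groups (Gpatch4), 4 from 12 libraries, and 0 to 4 leaving out 1 library (4 without control 2). In KO arrest against KO embryo the 1 became 0 with a pseudocount of 0.1, no filter, TPM or the coverage scale, and 2 with a minimum of 5 FPKM, median-of-ratios scaling, weights, 2 groups, 12 libraries or the length trend removed, and 0 to 2 leaving out 1 library. Same-numbered libraries deviated from their group means with correlations of -0.101 to 0.0247. In groups of 2 libraries such deviations mirror each other, so these correlations cannot decide whether the numbers mark pairs. With the replicate block as a term the calls were 76, 1965, 550 and 26 genes in the 4 comparisons and 0 members in each embryo comparison. Directions that turned in KO embryo were Golga7 (-0.02) at 0.0051 with a pseudocount of 0.1 and 0.018 with weights, and Tcea1 (0.18) at -0.29 with median-of-ratios scaling, -0.20 with quantile normalization and -0.14 with the length trend removed. Leaving out 1 library gave Tcea1 -0.41 to 0.77, Golga7 -1.04 to 1.00, Glo1 -1.59 to 0.77, Rtn4 -0.52 to 2.37 and Arpc4 -2.34 to 0.18. In KO arrest against control embryo Tmsb10 (0.82) turned to -0.066 with quantile normalization and -0.52 with the length trend removed, and leaving out 1 library gave Rtn4 -0.86 to 2.02, Tcea1 -1.04 to 0.14 and Glo1 -0.063 to 2.30. In KO arrest against KO embryo Gpatch4 (0.21) turned to -0.021 with quantile normalization, -0.46 with weights and -0.024 with the length trend removed, and gave -1.62 to 1.28 leaving out 1 library; Zfp518b (-0.28) turned to 0.037 with the length trend removed and gave -0.60 to 0.00040 leaving out 1 library. Median-of-ratios scaling moved the median of all genes by -0.27 in KO embryo and -0.21 in KO arrest against control embryo, and TPM moved it by -0.35 in both KO arrest comparisons. The share of higher calls was 76.4% in KO embryo and 46.4% with median-of-ratios scaling or 56.9% with quantile normalization. In the same comparison it was 90.2% with weights and 89.5% with the replicate block. It was 64.9% in KO arrest against control embryo and 50.0% with TPM, 53.4% with median-of-ratios scaling and 48.9% with quantile normalization. It was 57.4% in KO arrest against KO embryo and 29.0% with TPM or 47.1% with quantile normalization. In ES cells it was 41.6%, and 53.3% with median-of-ratios scaling, 57.7% with the replicate block and 30.1% from all 12 libraries. The cause was not tested.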
